A study of Mus musculus with 8 samples.

Results

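A set of 9 genes of the hair cell synapses, their calcium machinery and their efferent input were followed in the whole inner ear at postnatal day 14, around the time when mice begin to hear. They were chosen by symbol, and each of the 9 is present among the 47517 symbols counted. Inner ears of mice heterozygous for a frameshift mutation of the thyroid hormone receptor TRα1, encoded by Thra, gave 4 libraries, and wild-type littermates gave 4. Both groups were untreated and of the same age. Strain and sex are not stated in the sources used here, nor whether a library came from 1 animal or from a pool, so p-values measure the spread between libraries, which may in part be technical. The title of the series speaks of cochlea, but each sample is labelled as inner ear, which holds the vestibular organs as well.

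Hair cells turn the deflection of their hair bundle into a change of membrane voltage. Calcium then enters through voltage-gated channels and releases glutamate at ribbon synapses onto afferent nerve fibres. In the opposite direction, cholinergic efferent fibres from the brainstem reach hair cells, where a nicotinic receptor admits calcium and a calcium-activated potassium channel turns that signal into inhibition. Thyroid hormone is required for the maturation of the cochlea before hearing begins, and hair cells acquire adult potassium currents in the same period.

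Roles order the 9 genes. Otof (chr5:30367062-30461932, minus strand, GRCm38) encodes otoferlin, the calcium sensor of vesicle fusion at ribbon synapses. Slc17a8 (chr10:89574020-89621253, minus strand) encodes VGLUT3, which loads glutamate into the vesicles of inner hair cells. Cacna1d (chr14:30039939-30491455, minus strand) encodes the pore of the CaV1.3 calcium channel, and Cabp2 (chr19:4081578-4087340, plus strand) a calcium-binding protein that slows inactivation of that channel. Kcnma1 (chr14:23289431-24014491, minus strand) encodes the pore of the BK potassium channel, which shortens the receptor potential. Calb2 (chr8:110137502-110168210, minus strand) encodes the calcium buffer calretinin, found in hair cells and also in ganglion neurons of the inner ear. Chrna9 (chr5:65934921-65977326, plus strand) and Chrna10 (chr7:102111266-102116828, minus strand) encode the subunits of the efferent nicotinic receptor, and Kcnn2 encodes the SK2 potassium channel that acts behind it.

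The upstream regions of Cabp2, Chrna10 and Chrna9 are shown because these 3 genes were highest in libraries with a high hair cell marker level and the mutated receptor acts at promoters and enhancers. Sequences are the 250 bases before a RefSeq transcript start (GRCm38.p6), 5′ to 3′ on the gene's strand, with E-boxes (CANNTG, the hexamer bound by basic helix-loop-helix factors such as the hair cell factor ATOH1) in capitals.
Cabp2, chr19:4082238-4082487, plus strand: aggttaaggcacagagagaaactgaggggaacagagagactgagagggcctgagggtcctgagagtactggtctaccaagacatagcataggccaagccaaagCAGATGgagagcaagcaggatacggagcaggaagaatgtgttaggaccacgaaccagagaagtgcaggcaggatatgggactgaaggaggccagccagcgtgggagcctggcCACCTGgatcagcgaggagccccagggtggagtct
Chrna10, chr7:102116714-102116963, minus strand: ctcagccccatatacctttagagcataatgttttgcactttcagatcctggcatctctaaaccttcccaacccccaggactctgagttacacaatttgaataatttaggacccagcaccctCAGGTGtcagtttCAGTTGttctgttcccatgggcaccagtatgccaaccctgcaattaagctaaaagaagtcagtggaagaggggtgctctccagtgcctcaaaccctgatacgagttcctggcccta
Chrna9, chr5:65966874-65967123, plus strand: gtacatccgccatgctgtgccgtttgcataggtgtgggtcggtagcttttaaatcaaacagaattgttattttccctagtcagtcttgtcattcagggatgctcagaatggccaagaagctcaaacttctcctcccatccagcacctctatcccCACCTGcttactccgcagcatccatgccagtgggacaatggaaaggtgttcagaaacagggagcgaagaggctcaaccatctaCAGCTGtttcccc
RefSeq upstream regions were matched for 6 of the 9 genes (Slc17a8, Cacna1d, Cabp2, Kcnma1, Chrna9 and Chrna10), with 9 starts in all. The thyroid hormone receptor half-site AGGTCA, searched on both strands, was found in 0 of these 9 windows and in 14.0% of all 32851 windows of that length. E-boxes, which read alike on both strands and whose first letters can overlap the end of the half-site, were found in 6 of the 9 and in 66.2% of all windows. A match or its absence describes these letters in this window only. The Cabp2 and Chrna9 windows shown lie inside the gene coordinates given above, and the Chrna10 window lies inside them in part. For Cabp2 and Chrna9, the annotated gene thus begins upstream of the window. The window before another Cabp2 start (chr19:4083269-4083518) is not shown and had 0 E-boxes.

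Libraries held between 18930841 and 23064578 counts, so a floor of 3 counts lay between 0.132 and 0.159 CPM (counts scaled to the normalised library size). Such floors cover counting error only. Thra itself stood at 113 to 137 CPM in mutant and 98.4 to 114 CPM in wild-type libraries (log2 fold change 0.24, SE 0.089, edgeR adjusted p = 0.924), and gene-level counts do not show the mutation. Hair cells were present in each library, since all 16 hair cell markers that are not among the 9 genes were detected and passed the filter on low counts. Their summed level was 230 to 321 CPM in mutant and 224 to 325 CPM in wild-type libraries (two-sided exact permutation p = 0.486, adjusted over 9 marker lists 0.729), and 2 of the 16 had a positive log2 fold change with 0 called. Mucosal markers of the airway and middle ear stood apart by genotype, with a summed level of 3.95 to 6.21 CPM in mutant and 188 to 634 CPM in wild-type libraries (exact permutation p = 0.0286, adjusted 0.257, where no smaller p is possible with 4 libraries each). Their part in the results below was not tested. In bulk tissue, fewer cells of a type and less RNA per cell cannot be told apart.

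Per length of merged exons, calretinin was by far the most abundant of the 9 transcripts. Calb2 stood at 242 ± 37.6 CPM per kb in mutant and 289 ± 47.8 CPM per kb in wild-type libraries (SD, n = 4 each), and its lowest library, at 197, lay far above the highest value of any other member. Cabp2 came next, at 6.21 ± 2.58 CPM per kb in mutant and 7.17 ± 1.72 in wild-type libraries, and Otof followed at 5.12 ± 1.93 in mutant and 5.97 ± 1.41 in wild-type libraries. Kcnn2 (4.05 ± 0.605 in mutant and 4.003 ± 0.244 CPM per kb in wild-type libraries), Cacna1d (3.71 ± 0.558 and 3.74 ± 0.813 in the same order) and Kcnma1 (3.89 ± 0.595 and 3.25 ± 0.491) formed a middle group. Chrna10 averaged 2.19 ± 0.646 CPM per kb in mutant and 2.48 ± 0.805 in wild-type libraries, and Slc17a8 1.95 ± 0.332 in mutant and 1.92 ± 0.433 in wild-type libraries. Chrna9 was lowest, at 0.729 ± 0.142 CPM per kb in mutant and 0.661 ± 0.210 in wild-type libraries. In wild-type libraries each gene overlapped its neighbour in this order except at the top, between Calb2 and Cabp2, and at the bottom, between Slc17a8 and Chrna9. The order in mutant libraries was the same apart from Kcnma1 and Cacna1d, which changed places within their spread. These levels are averages over the whole organ, and a gene used by neurons or fibrous tissue as well as by hair cells gains from them.

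**Figure D1:**
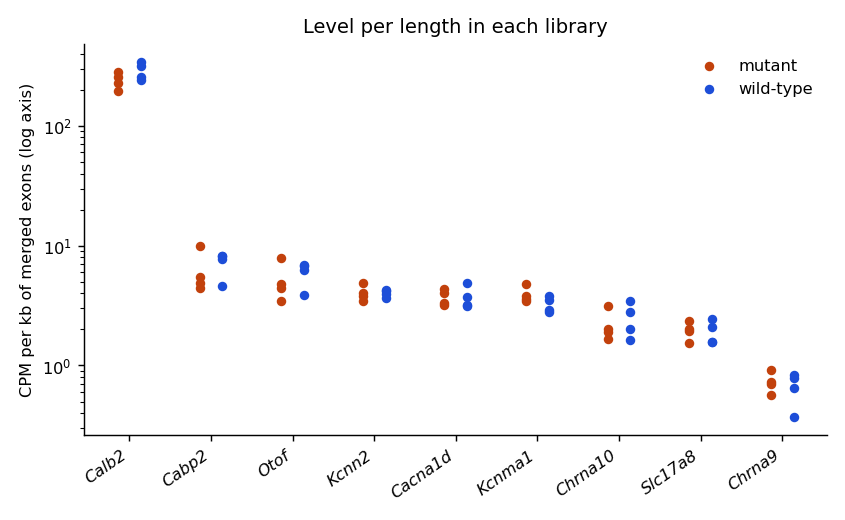
Level of the 9 genes per kilobase of merged exons in each library, in CPM per kb on a log axis, in order of the wild-type mean, with mutant libraries left of wild-type libraries. Calb2 lies between 197 and 343 CPM per kb and the other 8 genes between 0.368 and 10.01.

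None of the 9 genes passed the test for a genotype difference. A call required a Benjamini-Hochberg adjusted p under 0.05 in edgeR's quasi-likelihood test over 21392 genes, where 0.00467% were higher and 0.0374% were lower in mutant libraries. All 9 members passed the filter on low counts, 0 were called higher and 0 lower, and 0 had an unadjusted p under 0.05, against 5.3% of all genes tested (2.21% higher and 3.09% lower in mutant libraries). DESeq2 called 0 of the 9, with 0 at an unadjusted p under 0.05, while it called 0.318% of all genes. Genotypes overlapped in all 9, whereas 2.69% of the genes tested showed no overlap (1.28% higher and 1.41% lower in mutant libraries). The median log2 fold change (mutant minus wild-type) of the members was -0.010, with 4 positive and 5 negative, beside a median of -0.0061 and 48.3% positive over all genes. With all libraries the 95% intervals ran no lower than -0.87 and no higher than 0.78, so all 9 intervals lay within a log2 difference of 1 in either direction. Each interval is for its own gene and was not adjusted over the 9. Without mutant replicate 2, Otof was at -0.51 (SE 0.21) and Cabp2 at -0.54 (SE 0.22), and no interval is given for that fit.

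**Figure D2:**
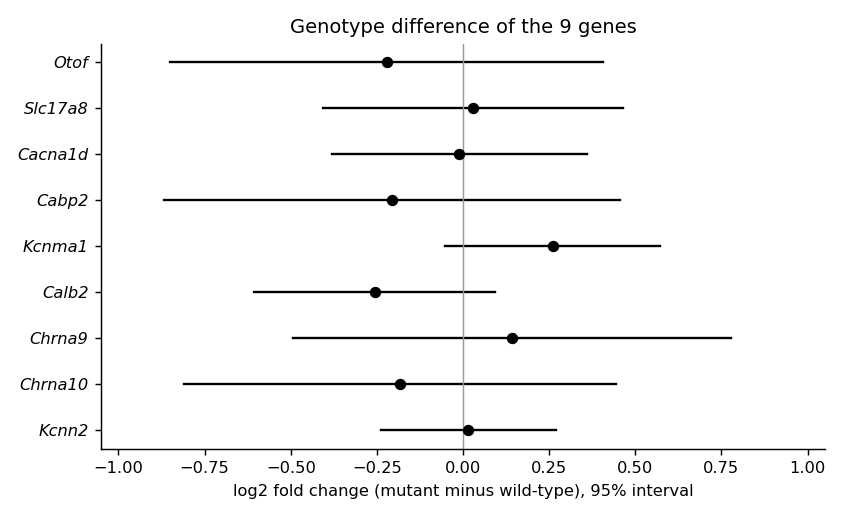
Log2 fold change of each gene, mutant minus wild-type, with its 95% interval from edgeR's quasi-likelihood fit (4 libraries per genotype). All 9 intervals include 0, and the lowest and highest ends are -0.87 for Cabp2 and 0.78 for Chrna9.

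Among the release genes, Otof had 34.7, 62.3, 27.2 and 37.5 CPM in mutant replicates 1 to 4, against 30.8, 53.6, 54.9 and 49.5 CPM in wild-type replicates 1 to 4. Mutant replicate 2 was the highest library of all, the other 3 mutant libraries lay below 3 of the 4 wild-type libraries, and wild-type replicate 1 lay among the low ones. The log2 fold change was -0.22 (SE 0.27, 95% interval -0.85 to 0.41, edgeR adjusted p = 0.99999). Without mutant replicate 2 it was -0.51 (unadjusted p = 0.0444 in edgeR's test across all genes, adjusted p = 0.617), and without mutant replicate 3 it was -0.072, so single libraries set the size of this difference. In the fit without mutant replicate 2, 1706 of the 21392 genes tested had an unadjusted p under 0.05, against 1134 with all libraries. Slc17a8 had 11.02, 9.56, 7.22 and 9.10 CPM in mutant replicates 1 to 4, against 7.38, 7.40, 11.6 and 9.80 CPM in wild-type replicates 1 to 4. High and low libraries occurred in both genotypes, and the log2 fold change was 0.029 (SE 0.19, interval -0.41 to 0.46), a sign that turned to -0.068, -0.048 and -0.055 without mutant replicate 1, wild-type replicate 1 or wild-type replicate 2.

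The calcium channel gene Cacna1d had 40.04, 50.8, 54.7 and 41.8 CPM in mutant replicates 1 to 4, against 39.5, 46.7, 61.8 and 40.7 CPM in wild-type replicates 1 to 4. The genotypes ran alike, with replicates 2 and 3 above replicates 1 and 4 in both. Its log2 fold change was -0.010 (SE 0.16, interval -0.38 to 0.36), positive without mutant replicate 1 (0.058), mutant replicate 4 (0.040) or wild-type replicate 3 (0.15). Its partner Cabp2 had 6.54, 13.5, 6.01 and 7.46 CPM in mutant replicates 1 to 4, against 6.22, 11.03, 11.03 and 10.4 CPM in wild-type replicates 1 to 4. As for Otof, mutant replicate 2 was the highest library and wild-type replicate 1 lay with the 3 low mutant libraries. The log2 fold change of Cabp2 was -0.21 (SE 0.29, interval -0.87 to 0.46), and -0.54 without mutant replicate 2 (unadjusted p = 0.0416 in edgeR's test across all genes, adjusted p = 0.613) or -0.076 without mutant replicate 3. The share of all genes with an unadjusted p under 0.05 in the fit without mutant replicate 2 is that given for Otof.

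Kcnma1 and Calb2 had the smallest p of the 9. The BK channel gene Kcnma1 had 58.1, 64.5, 80.6 and 60.7 CPM in mutant replicates 1 to 4, against 47.2, 59.3, 64.7 and 49.2 CPM in wild-type replicates 1 to 4. Each mutant library stood above 2 of the wild-type libraries at least, but the ranges overlapped. Its log2 fold change was 0.26 (SE 0.14, interval -0.052 to 0.57, edgeR adjusted p = 0.929), 0.15 without mutant replicate 3 and 0.39 when libraries were scaled to the hair cell markers. Calb2 had 449, 400, 343 and 495 CPM in mutant replicates 1 to 4, against 597, 444, 424 and 549 CPM in wild-type replicates 1 to 4. Calretinin RNA ran in the opposite sense, with the lowest 2 libraries in the mutant and the highest 2 in the wild-type, and with overlap between them. Its log2 fold change was -0.26 (SE 0.15, interval -0.61 to 0.094, edgeR adjusted p = 0.964), and -0.15 without wild-type replicate 1.

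In the efferent receptor, Chrna9 had 1.71, 2.76, 2.13 and 2.22 CPM in mutant replicates 1 to 4, against 1.11, 2.52, 2.39 and 1.98 CPM in wild-type replicates 1 to 4. These values rest on 24 to 60 counts per library, which alone give a coefficient of variation of 15.2%, beside an observed 19.5% in mutant and 31.7% in wild-type libraries. The log2 fold change was 0.14 (SE 0.28, interval -0.49 to 0.78), and -0.048 without wild-type replicate 1, the lowest library. Chrna10 had 5.05, 8.23, 4.41 and 5.29 CPM in mutant replicates 1 to 4, against 4.32, 7.40, 9.05 and 5.34 CPM in wild-type replicates 1 to 4. The 2 subunit genes shared their lowest library, wild-type replicate 1, and the log2 fold change of Chrna10 was -0.18 (SE 0.28, interval -0.81 to 0.44), with -0.41 without mutant replicate 2 and 0.016 without wild-type replicate 3. Chrna10 exceeded Chrna9 per length in every library, by a ratio of 2.99 ± 0.515 in mutant and 3.83 ± 0.683 in wild-type libraries (SD, n = 4 each), and the ratios did not differ beyond their spread (exact permutation p = 0.171, two-sided, on the log2 scale). Art1 on the opposite strand overlaps exons of Chrna10 and had 100 to 180 counts per library, against 91 to 179 for Chrna10, and whether reads were counted by strand is not given in the sources used here. The same holds for Cacna1d, whose exons overlap Chdh (678 to 927 counts), and for Kcnn2, whose exons overlap A330093E20Rik (127 to 220 counts).

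Kcnn2, the potassium channel of the efferent response, was the steadiest of the 9. The gene lies at chr18:45268860-45686024 on the plus strand. It had 25.9, 36.4, 28.3 and 30.3 CPM in mutant replicates 1 to 4, against 29.4, 31.6, 27.6 and 31.05 CPM in wild-type replicates 1 to 4. Mutant replicate 2 was again the highest library, and the rest lay close together in both genotypes. The log2 fold change was 0.016 (SE 0.11, interval -0.24 to 0.27), the narrowest interval of the 9, and its sign turned without mutant replicate 2 (-0.086) or wild-type replicate 3 (-0.021).

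**Figure D3:**
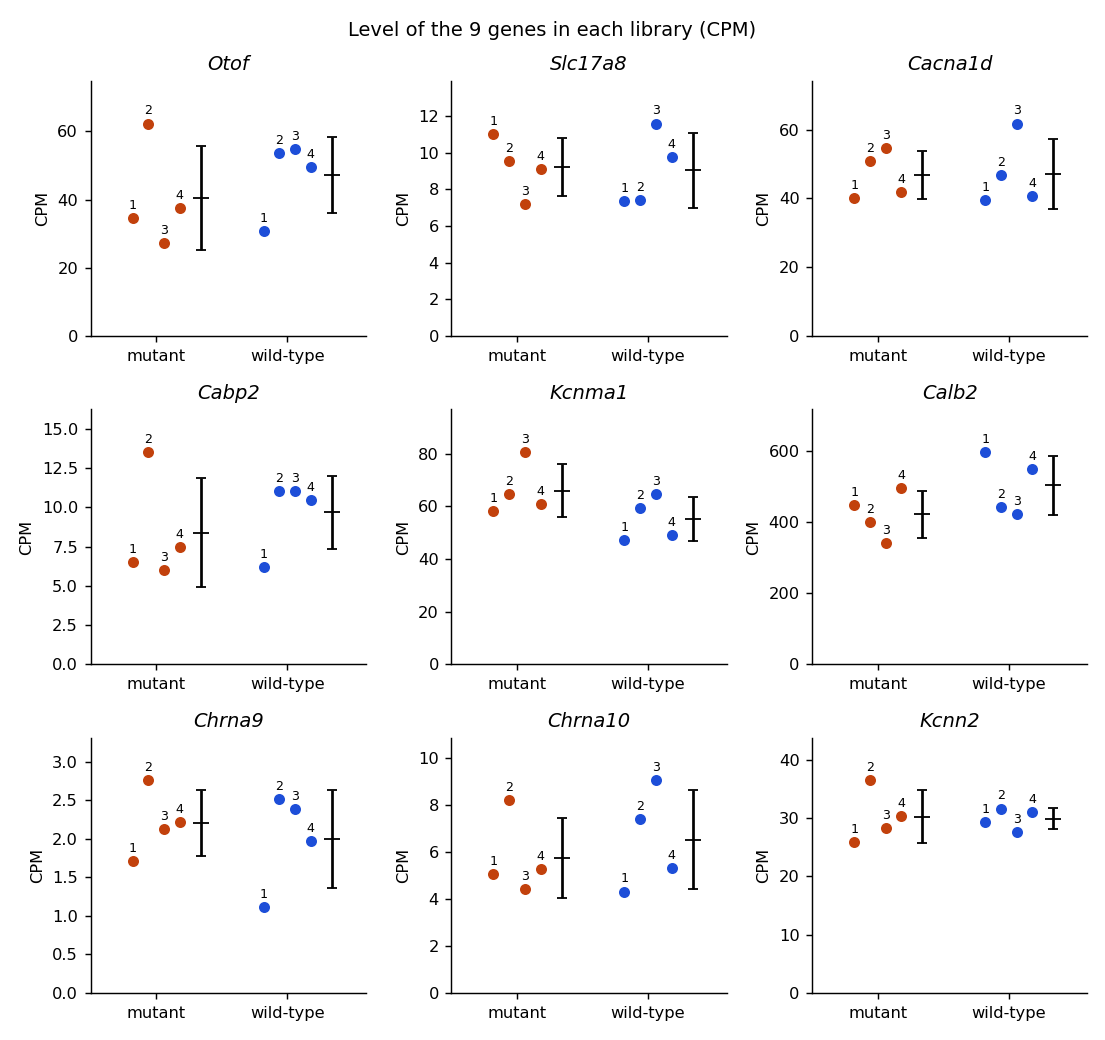
CPM of each gene in every library, mutant left and wild-type right, with replicate numbers beside the points and bars for the mean and SD (n = 4 each). The genotypes overlap in all 9 panels, and mutant replicate 2 is the highest library for Otof, Cabp2, Chrna9 and Kcnn2.

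Libraries of the same genotype differed from each other in an ordered way. Otof and Cabp2 ranked the 8 libraries identically. Their ratio per length was 1.21 ± 0.0899 in mutant and 1.2001 ± 0.0264 in wild-type libraries (SD, n = 4 each, Cabp2 over Otof, exact permutation p = 0.914), although Otof alone varied 2.29-fold and Cabp2 2.25-fold over the 8 libraries. Values of both genes left a gap, between 37.5 and 49.5 CPM for Otof, with 1 mutant and 3 wild-type libraries above it. With the libraries in 2 clusters of 4, no correlation between these 2 genes is given.

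The level of the 16 hair cell markers, taken as their mean log2 CPM, was 2.96, 3.47, 3.03 and 3.22 in mutant replicates 1 to 4, against 2.91, 3.42, 3.48 and 3.30 in wild-type replicates 1 to 4. The 4 libraries above the gap in Otof and Cabp2 were the 4 with the highest marker level. Chrna10 had its largest gap between 5.34 and 7.40 CPM, and its 3 libraries above it, mutant replicate 2 and wild-type replicates 2 and 3, were the 3 with the highest marker level. The same 3 libraries were the highest for Chrna9, and the 2 with the lowest marker level, wild-type replicate 1 and mutant replicate 1, were also its lowest. The largest gap between neighbouring libraries took 33.4% of the log2 range for Otof, 41.4% for Cabp2, 44.3% for Chrna10, 46.8% for Chrna9 (wild-type replicate 1 alone below it) and 33.8% for the marker level itself. With gaps of this size and 8 libraries, no correlation of the members with the marker level is given. Relations within a genotype or a title form were not computed, since each holds only 4 libraries.

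Not every hair cell gene ran in that order. Slc26a5, which encodes prestin, the motor protein of outer hair cells and itself one of the 16 markers, had 4.52, 1.98, 4.12 and 4.61 CPM in mutant replicates 1 to 4, against 3.20, 1.79, 3.75 and 2.90 CPM in wild-type replicates 1 to 4. Its 3 highest libraries were mutant replicates 4, 1 and 3, which were among the 4 lowest for Otof, and its 2 lowest were mutant replicate 2 and wild-type replicate 2. Of the 16 markers, 5 had the 4 libraries above the gap in Otof as their 4 highest and 0 had them as their 4 lowest. These 4 libraries were picked by the values of Otof. The share of all genes tested with the same 4 highest was not computed, so the count is a description only.

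Genes of the vestibular organs, and of the organ of Corti and tectorial membrane, were looked up after these values had been seen, and neither list moved as 1 block. A place in either list does not mean that a gene, such as Otog or Tecta, is confined to that organ. Of 6 genes listed as vestibular, Otog and Nox3 had the 4 libraries above the gap in Otof as their highest, and the other 4 (Oc90, Otol1, Otop1 and Noxo1) did not. The otogelin gene Otog had 61.3, 121.8, 54.9 and 71.4 CPM in mutant replicates 1 to 4, against 51.4, 84.7, 130.04 and 76.4 CPM in wild-type replicates 1 to 4. The otoconial gene Oc90 had 10.4, 4.23, 9.06 and 5.93 CPM in mutant replicates 1 to 4, against 7.57, 2.47, 14.5 and 5.01 CPM in wild-type replicates 1 to 4. Its 2 lowest libraries, wild-type replicate 2 and mutant replicate 2, thus lay above the gap in Otof, as did its highest, wild-type replicate 3. Of 6 genes of the organ of Corti and tectorial membrane, those 4 libraries were the highest for Tecta and the lowest for Emilin2, and neither for the other 4 (Slc26a5, Tectb, Otoa and Ceacam16). Summed over each list, the vestibular genes stood at 85.9 to 161 CPM in mutant and 82.3 to 186 CPM in wild-type libraries, and the cochlear genes at 426 to 760 CPM in mutant and 366 to 709 CPM in wild-type libraries. Of 6 cerebellar markers, Gabra6 alone (at most 2.50 CPM) had those 4 libraries as its highest. These values are descriptions, without the share over all genes tested. The part of vestibular and cochlear tissue in the order of the libraries was not tested.

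**Figure D4:**
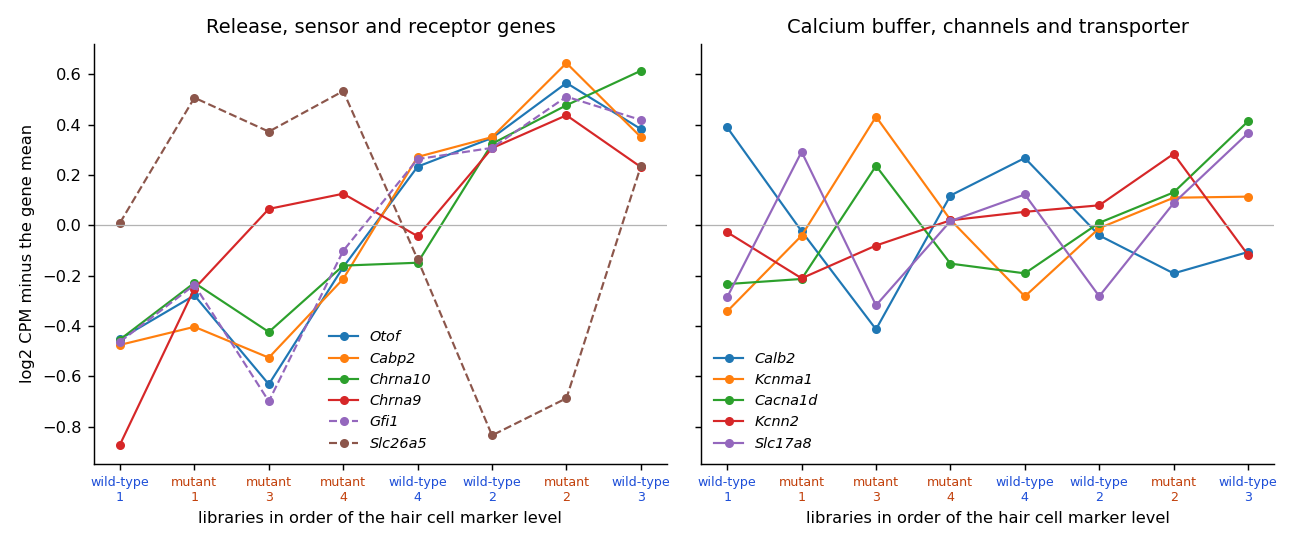
Log2 CPM minus the gene's mean in each library, with libraries in order of the mean log2 CPM of 16 hair cell markers (mutant labels red, wild-type labels blue). In the left panel Otof, Cabp2, Chrna10, Chrna9 and the hair cell factor Gfi1 are highest among the libraries at the high end of this order, which Slc26a5 (dashed) is not, and in the right panel Calb2 and Kcnma1 mirror each other.

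Calb2 and Kcnma1 varied against each other. Over the 8 libraries their log2 levels had a Pearson r of -0.96 (exact permutation p = 4.96e-04, adjusted over 36 pairs of members 0.00893) and a rho of -0.90 (p = 0.00456, adjusted 0.0329), and r was -0.87 without mutant replicate 3 and wild-type replicate 1. Cacna1d and Kcnma1 passed in rank only (r = 0.74, exact permutation p = 0.0351, adjusted 0.158; rho = 0.93, p = 0.00223, adjusted 0.0201; r without mutant replicate 3 and wild-type replicate 3 0.72). These p-values treat the 8 libraries as exchangeable. Calb2 and Cacna1d did not overlap between the forms of the sample title, as given below. Kcnma1 stood at 59.3 to 80.6 CPM with 2 numbers in the title and 47.2 to 60.7 CPM with 1. Calb2 and Kcnma1 also had genotype differences of opposite sign. The part of title form and genotype in these correlations was not tested.

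**Figure D5:**
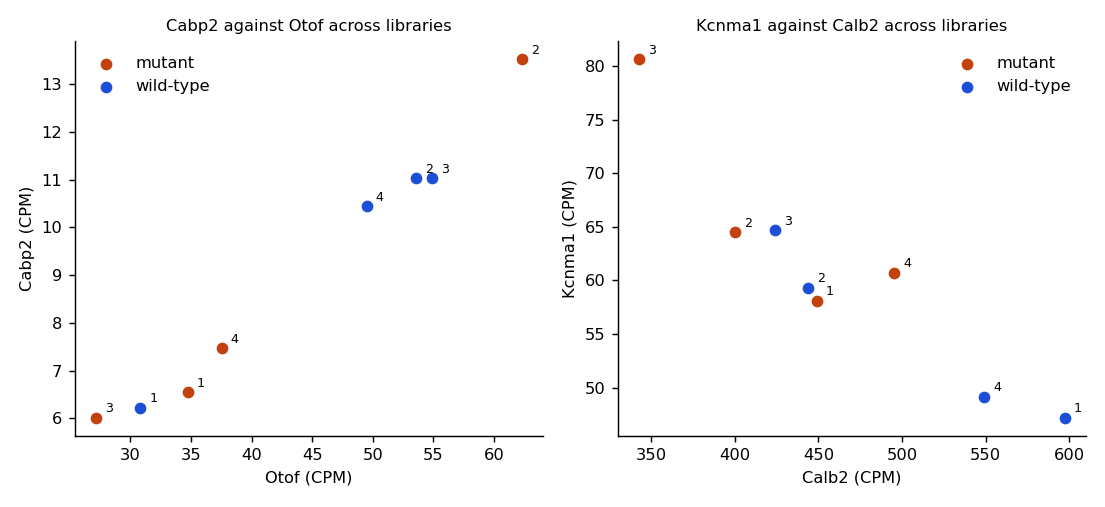
Cabp2 against Otof (left) and Kcnma1 against Calb2 (right) in CPM, 1 point per library, with replicate numbers beside the points (axes do not start at 0). Cabp2 ranks the libraries as Otof does, on both sides of a gap between 37.5 and 49.5 CPM, and Kcnma1 is at 80.6 CPM at the lowest Calb2 value and at 47.2 CPM at the highest.

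Levels of 2 members were split by the form of the sample title. Replicates 2 and 3 of both genotypes have titles with 2 numbers, and replicates 1 and 4 have titles with 1, whose meaning is unexplained. Calb2 stood at 343 to 444 CPM in libraries with 2 numbers and 449 to 597 CPM in those with 1, and Cacna1d at 46.7 to 61.8 CPM with 2 and 39.5 to 41.8 CPM with 1 (no overlap, exact permutation p = 0.0286 each, the smallest possible, adjusted over the 9 members 0.129). Title form was taken up after values had been seen. The share of all genes tested that split by title form was not computed, so the split cannot be called particular to these 2 genes. Summed neuronal markers, which are not particular to the ganglia of the inner ear, split by title form as well. They stood at 4369 to 5225 CPM with 2 numbers and 6740 to 7200 CPM with 1 (exact permutation p = 0.0286). By genotype they lay at 4496 to 7200 CPM in mutant and 4369 to 6759 CPM in wild-type libraries (exact permutation p = 0.743, adjusted 0.900). The r of Calb2 with the mean log2 level of these markers was 0.72 over 8 libraries (exact permutation p = 0.0446, adjusted over 9 genes 0.184; rho = 0.57, p = 0.151, adjusted 0.513). Without mutant replicate 3 and wild-type replicate 1, the 2 libraries farthest from the median marker level, it was 0.087. The r with this mean thus depended on those 2 together, while with any 1 library left out it was 0.51 to 0.88. Unlike the sum, the mean gives each marker equal weight, also Prph, at 1.75 CPM in wild-type replicate 4 and 58.1 CPM in wild-type replicate 1. Single markers had an r with Calb2 between 0.26 (Prph) and 0.85 (Tubb3). With the same mean, Cacna1d had an r of -0.71 and Kcnma1 of -0.68 (exact permutation p = 0.0531 and 0.0614, adjusted 0.184 each). Without the same 2 libraries these were -0.57 and 0.11. The remaining members had an r between -0.45 (Chrna9) and 0.27 (Kcnn2). Calretinin is also a protein of cerebellar neurons. The summed level of 6 cerebellar markers was 30.7 to 42.3 CPM in mutant and 20.2 to 54.5 CPM in wild-type libraries. Zic1 alone stood at 10.1 CPM in wild-type replicate 1 and 32.5 CPM in wild-type replicate 3. Gabra6 had 0 counts in 1 wild-type library and Pcp2 had 0 in another. The part of cerebellar tissue in the Calb2 level was not tested.

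Within a title form the genotype differences of Calb2 and Kcnma1 kept their direction. Calb2 differed by -0.28 (log2, mutant minus wild-type) in libraries with 1 number and by -0.23 in those with 2, and Kcnma1 by 0.30 and 0.22 in the same order, each from 2 libraries per genotype. In both title forms the 2 mutant libraries had less Calb2 than the 2 wild-type libraries. With title form as a covariate, Kcnma1 had a log2 fold change of 0.26 (SE 0.080) and Calb2 of -0.25 (SE 0.076), both at an unadjusted p of 0.0115 in edgeR's test across all genes and an adjusted p of 0.647. With that covariate 1633 of the 21392 genes tested had an unadjusted p under 0.05, against 1134 with genotype alone. Otof differed by -0.11 in libraries with 1 number and -0.40 in those with 2, Cabp2 by -0.20 and -0.29, and Cacna1d by 0.029 and -0.028. Signs differed between the title forms for Slc17a8 (0.23 with 1 number and -0.16 with 2), Chrna9 (0.37 and -0.017), Chrna10 (0.10 and -0.44) and Kcnn2 (-0.11 and 0.12).

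Genes whose level was most like that of each member were drawn from 19374 other genes with a mean of at least 1 CPM, by Pearson r of log2 CPM over the 8 libraries. For Otof these were Gfi1, a zinc finger factor that hair cells need (r = 0.99), Agr3 (0.99) and Pls1, which encodes an actin bundler of stereocilia (0.99). For Cabp2 they were Hydin, a gene of motile cilia (0.99), Ppp1r32 (0.98) and Gm1113 (0.98), and for Chrna10 Otog (0.97), the cytokine receptor gene Osmr (0.96) and Gad1 (0.96), which encodes an enzyme of GABA synthesis. Of the 16 hair cell markers, 3 were among the 100 genes most like Otof, 3 for Cabp2, 3 for Chrna10, 1 for Chrna9, 1 for Slc17a8 and 0 for each of the other 4. The marker Barhl1 averaged 0.681 CPM in mutant and 0.939 CPM in wild-type libraries, below the limit of 1 CPM, and could not be among them. The genes most like Kcnma1 were Etl4 and the transcription factor genes Foxp2 and Meox2 (0.98 each), and those like Calb2 included Trappc2l (0.98) and Gm13442 (0.97). Cacna1d was most like Mir3064 (0.99), Zfp207 (0.98) and Msi1 (0.98), Kcnn2 like Ubxn11 (0.97), Dock11 (0.97) and Zbtb11 (0.96), Slc17a8 like Erap1 (0.95), Pcdh20 (0.93) and 4632415L05Rik (0.92), and Chrna9 like Ddx20 (0.98), Mcf2 (0.96) and Armc2 (0.96). With so many genes and 8 libraries such values are common, and the gene in place 100 still had an r of 0.76 to 0.95 for the 9 members. For Otof, Cabp2, Chrna10 and Chrna9, these r carry the gaps between libraries described above and serve only to rank genes. Gfi1 is itself one of the 16 hair cell markers.

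Other genes of the same synapses were not called either. Of 11 scaffold and channel partners at the ribbon, 0 passed in either direction (7 positive, median log2 fold change 0.020). The auxiliary calcium channel subunit gene Cacna2d2 had the smallest p at 20.1 ± 3.07 CPM in mutant and 15.2 ± 2.35 CPM in wild-type libraries (n = 4 each; log2 fold change 0.40 with SE 0.15 and edgeR adjusted p = 0.924), followed by Wrb, a receptor for tail-anchored proteins such as otoferlin (0.14, SE 0.096), and the calcium-binding protein gene Cabp1 (-0.14, SE 0.12). Of 10 genes of the afferent postsynaptic side 0 passed (7 positive, median 0.086). Gria1, an AMPA receptor subunit gene, averaged 9.02 ± 1.29 CPM in mutant and 11.9 ± 1.44 CPM in wild-type libraries (n = 4 each; log2 fold change -0.40 with SE 0.14 and edgeR adjusted p = 0.911), while Gria4 (0.14, SE 0.096) and the scaffold gene Shank1 (0.10, SE 0.098) came next.

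Among 14 genes of cholinergic terminals and other nicotinic receptors, 10 were tested and 0 passed (4 positive, median -0.087). The choline acetyltransferase gene Chat had at most 7 counts and the vesicular transporter gene Slc18a3 had 0 in every library, and the muscle receptor genes Chrnd and Chrng had at most 6 and 4. Calca, which encodes a peptide of efferent terminals (0.58, SE 0.36), the choline transporter gene Slc5a7 (0.54, SE 0.35) and Chrne (-0.53, SE 0.43) had the smallest p, the last 2 from 6 to 24 counts. Of 14 related potassium channels, channel partners, calcium buffers and pumps 0 passed (5 positive, median -0.074). The BK channel partner gene Lrrc52 had the smallest p of all these lists, at 0.927 ± 0.0800 CPM in mutant and 1.65 ± 0.241 CPM in wild-type libraries (SD, n = 4 each) from 17 to 41 counts, with no overlap (log2 fold change -0.82, SE 0.22, edgeR adjusted p = 0.867). Kcnn4, a calcium-activated channel gene of blood cells and epithelia (-0.89, SE 0.38, adjusted p = 0.924), and the BK subunit gene Kcnmb1 (-0.69, SE 0.40, 5 to 15 counts) followed. Beside Kcnn4, summed erythroid markers lay at 7649 to 18902 CPM in mutant and 12810 to 49442 CPM in wild-type libraries (exact permutation p = 0.143, adjusted 0.386), and their part was not tested. Kcnmb1 is typical of smooth muscle, whose summed markers lay at 71.8 to 99.9 CPM in mutant and 87.7 to 98.8 CPM in wild-type libraries (exact permutation p = 0.171, adjusted 0.386). As a mean of log2 CPM, an alternative to the sum, the 4 markers differed by -0.26 (exact permutation p = 0.0286, unadjusted). Tagln had 16.8 to 23.1 CPM in mutant and 24.9 to 30.2 CPM in wild-type libraries. Cnn1 had 0.847 to 1.27 CPM in mutant and 1.42 to 1.84 CPM in wild-type libraries. Neither overlapped between genotypes, which held for 2.69% of all genes tested. Acta2 (log2 fold change -0.29, SE 0.13) and Myh11 (0.30, SE 0.14) did overlap, and Myh11 was higher in the mutant on average. The part of smooth muscle in the values of Kcnma1 and Kcnmb1 was not tested.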

How the data were processed

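Per the labels' protocols, RNA of 8 inner ear samples was prepared by TRIzol and a Qiagen micro column and sequenced as CORALL (Lexogen) libraries with UMIs. FastQC, STAR, HTSeq and the build mm10 are named, per the submitters' processing notes, while their versions, the annotation and how strand and UMIs were handled are not stated there. The deposited files hold raw counts per gene symbol, 47517 in each, and no row for unassigned reads. From these counts, edgeR 4.0.16 in R 4.3.3 was run with TMM normalisation, its default filter, a robust quasi-likelihood fit and genotype as the only term, over 21392 genes of 33027 with any count. Standard errors are the fold change divided by the square root of F, and intervals use the posterior degrees of freedom. CPM use the TMM library sizes, and log2 CPM a prior count of 2. Permutation tests were exact and two-sided. Coordinates and exon lengths came from GENCODE M21 (GRCm38). Libraries differed beyond sampling noise, with a chi-square per degree of freedom of at least 17.3 between any 2. Depth limits Chrna9 most. The members, the gene lists and the rules were chosen with earlier results of these data known. Named besides the 9 members were the 3 genes of smallest p in each list of related genes and the 3 genes most like each member, of which 1 is not reported here. Slc26a5, Gfi1, Ttr, the vestibular and cochlear genes, single markers of other tissues, the neuronal correlation and the title form values were taken up after values had been seen. Alternatives were RLE size factors, scaling to hair cell markers, no filter and one that asked for 1 CPM or more in 4 libraries or more, DESeq2 1.42.0, title form as a covariate, libraries of neighbouring title numbers as blocks, and each library left out.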

Additional observations from a re-analysis of the deposited data

Results flagged for a closer look

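Cabp2 in wild-type replicate 1, at 6.22 CPM, lay far below the other 3 wild-type libraries, the nearest of which held 10.4 CPM, and the gap took 0.878 of the group's range. Chance alone marks about 1 group in 20, and 36 groups were examined. The same library was the lowest of the wild-type libraries for Otof, Chrna9 and Chrna10 and the highest for Calb2.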

How the results depend on the processing

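Across 15 alternatives for each of the 9 genes (135 values), 0 were called, with adjusted p from 0.160 upward, and 123 kept their direction. Otof, Cabp2 and Calb2 stayed negative and Kcnma1 positive in all 15. Scaling to the hair cell markers, which moved the median of all genes by 0.10, turned Cacna1d to 0.12 and left Otof at -0.13 and Calb2 at -0.19. Leaving out 1 library gave -0.068 to 0.17 for Slc17a8, -0.093 to 0.15 for Cacna1d, -0.048 to 0.27 for Chrna9, -0.41 to 0.016 for Chrna10 and -0.086 to 0.084 for Kcnn2. Called over all genes were 1 with higher and 8 with lower counts in the mutant, against 6 and 22 with scaling to hair cell markers, 19 and 49 with DESeq2, 1 and 4 with title form, and 1 to 4 higher and 1 to 8 lower with 1 library left out. Neighbouring title numbers as a replicate block gave 17 higher and 12 lower, Cacna1d at 0.00037, and Kcnma1 and Calb2 at 0.26 and -0.25 (edgeR unadjusted p = 0.00412 and 0.0101, adjusted p = 0.160 and 0.212). With blocks 2910 of the 21392 genes tested had an unadjusted p under 0.05, against 1134 with genotype alone. The labels do not state a pairing. Deviations of the 4 assumed pairs correlated at 0.13, 0.25, 0.19 and -0.038, so 3 of 4 exceeded 0.1, and pairs 2 and 3 correlated best with their own number on both sides but pairs 1 and 4 did not. By mean log2 CPM, marker lists differed by -0.039 for neurons, -0.033 for cerebellum, -0.19 for skeletal muscle and -0.26 for smooth muscle (exact permutation p = 0.0286, unadjusted). Leaving out 1 library gave log2 ratios of -0.22 to -0.052 for hair cells, 0.18 to 0.38 for Schwann cells, 0.078 to 0.38 for osteoblasts, -1.17 to -0.44 for erythroid cells, -0.074 to 0.15 for neurons, -0.095 to 0.40 for cerebellum, -0.15 to 0.18 for skeletal muscle, -0.30 to -0.13 for smooth muscle and -6.50 to -5.87 for mucosa. The causes of these changes were not tested.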

Other observations

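Markers of the other cell types had the following summed levels. Schwann cell genes stood at 9797 to 12914 CPM in mutant and 6951 to 10880 CPM in wild-type libraries (exact permutation p = 0.114, adjusted over 9 lists 0.386). Osteoblast genes stood at 8727 to 15912 CPM in mutant and 6100 to 11365 CPM in wild-type libraries (exact permutation p = 0.429, adjusted 0.729). Skeletal muscle genes stood at 12.3 to 20.9 CPM in mutant and 10.4 to 20.7 CPM in wild-type libraries (exact permutation p = 0.914, adjusted 0.914). For the cerebellar genes given above the test gave no call (exact permutation p = 0.800, adjusted 0.900). Transthyretin RNA (Ttr), typical of choroid plexus, was abundant in mutant replicate 4 (2021 CPM), and no other library exceeded 32.5 CPM.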
